A study of Mus musculus with 96 samples.

Results

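The genes described here are 10 transcription factors of mesenchymal cells: Twist1, Twist2, Prrx1, Snai1, Snai2, Zeb1, Zeb2, Meox1, Runx1 and Runx2. They were chosen by symbol from the 21711 gene rows of a single-cell expression table, and all 10 were found, each on 1 row. It was made by STRT (single-cell tagged reverse transcription), in which every well gets its own barcode at the cDNA step and reads start at 5′ ends, with strand kept. One plate of 96 wells held 44 wells labelled as mouse embryonic fibroblasts (MEFs), 48 wells labelled as mouse embryonic stem (ES) cells and 4 negative control wells. The MEF medium was DMEM with serum (10% FBS), antibiotics (penicillin and streptomycin), Glutamax and 2-mercaptoethanol, and ES cells of the R1 line were kept in a separate culture. The labels also give R1 as the source line of the MEF wells, and they give no strain, embryonic age or passage. Wells were grouped by their cell type label. The labels name no cultures within a type, so a type counts here as 1 culture, and the values below carry counting intervals and spreads over cells but no p-value.

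Cell wells with at least 10000 gene reads were used, which kept 44 MEFs and 45 ES cells. Gene reads ran over 63938, 851801 and 1883709 per MEF (lowest, median and highest), over 13576, 161206 and 703423 per ES cell and over 236, 3814.5 and 4662 per negative control well. MEF wells held a median of 152 gene reads per spike-in read, against 6.62 in ES cell wells, so fewer ES cell reads stood behind every share of cells given below. MEFs lay on 1 side of the plate and ES cells on the other, so side and cell type cannot be told apart, while each of the 8 plate rows held both. The cell type labels were checked on marker lists. All 12 fibroblast markers passed 2-fold toward MEFs, with a median log2 ratio (MEF over ES cell) of 4.10. All 12 pluripotency markers passed 2-fold toward ES cells, with a median log2 ratio of -8.47. Of all genes with at least 20 reads over both types, 58.5% passed 2-fold toward MEFs and 15.4% toward ES cells. ES cell replicates 4, 7 and 22 lay nearer to the mean MEF profile than to the mean ES cell profile by correlation or by distance, and values without them are given where they matter. MEF replicate 53, the shallowest MEF, lay nearer to ES cells by distance alone.

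Twist1 and Twist2 are basic helix-loop-helix factors that pair with E proteins, Snai1, Snai2, Zeb1 and Zeb2 are zinc finger repressors that bind E-box motifs in promoters of epithelial genes, and Prrx1 is a homeodomain factor of mesenchyme. Runx1 and Runx2 bind DNA with their partner Cbfb and act in blood formation and in bone formation, and Meox1 is a homeodomain factor of the somites. The Snail, Zeb and Twist families are known for their part in epithelial-to-mesenchymal transition, in which cells lose E-cadherin and tight junctions and gain a fibroblast-like state.

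The E-box CAGGTG, which on the opposite strand reads CACCTG, is the textbook binding motif of Snail and Zeb factors, so the 250 bases before the transcript start are shown for Snai1, which encodes such a factor and holds the motif there, and for Crb3 and Epcam, epithelial genes that were near absent in MEFs. Crb3 is a polarity protein of the apical membrane, and Epcam is an epithelial adhesion protein. The sequences are those of RefSeq on GRCm38.p6, all on the plus strand, at chr2:167537945-167538194 for Snai1, chr17:57061981-57062230 for Crb3 and chr17:87635729-87635978 for Epcam. Capitals mark the E-box on either strand.
Snai1: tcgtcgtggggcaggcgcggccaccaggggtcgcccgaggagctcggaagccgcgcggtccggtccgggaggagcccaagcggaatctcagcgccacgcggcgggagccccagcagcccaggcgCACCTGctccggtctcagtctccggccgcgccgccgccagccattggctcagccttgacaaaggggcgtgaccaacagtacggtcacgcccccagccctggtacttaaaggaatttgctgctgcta
Crb3: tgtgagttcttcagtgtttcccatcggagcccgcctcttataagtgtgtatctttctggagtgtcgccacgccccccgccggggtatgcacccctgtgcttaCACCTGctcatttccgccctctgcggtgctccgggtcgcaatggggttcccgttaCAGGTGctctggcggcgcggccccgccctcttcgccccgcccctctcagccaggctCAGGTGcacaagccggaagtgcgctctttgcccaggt
Epcam: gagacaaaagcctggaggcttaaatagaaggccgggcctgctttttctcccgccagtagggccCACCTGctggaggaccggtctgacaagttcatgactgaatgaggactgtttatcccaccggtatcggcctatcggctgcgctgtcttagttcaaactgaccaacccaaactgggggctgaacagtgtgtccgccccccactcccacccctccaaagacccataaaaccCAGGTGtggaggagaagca
The Snai1 window held 1 E-box, beginning 126 bases before the start. Crb3 held 3, beginning 148, 93 and 37 bases before the start, and Epcam held 2, beginning 187 and 19 bases before it. Among the epithelial genes higher in ES cells with a window on file, Crb3 held the most, and Cldn3 and Ovol2 held 0. The motif was searched on both strands over 32851 promoter windows of the same length, and 17.2% of them held it. Windows were on file for 7 of the 10 transcription factors, and those of 2, Snai1 and Runx1, held the motif. A match describes these letters only and shows no binding.

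Each of the 10 genes was higher in MEFs than in ES cells by at least 2-fold, as were 58.5% of the 12818 genes with at least 20 reads over both types. For 9 of the 10 the difference was at least 10-fold, a size that 21% of those genes reached, and Snai2 at 9.52-fold was the exception. Meox1 counts among the 9 only with 3 reads put in for its 0 ES cell reads. Levels are given as CPM, the reads of a gene scaled to a common total of gene reads. Summed, the 10 genes came to 756 CPM in MEFs and 46.7 CPM in ES cells, a ratio of 16.2, and they made up 0.0756% of MEF gene reads and 0.00467% of ES cell gene reads. The median log2 ratio (MEF over ES cell) of the 10 genes was 4.06. Most genes leaned toward MEFs on this scale, since the median log2 ratio of all genes with at least 100 reads was 1.54, and the 10 genes stood 2.52 above it at their median. The log2 ratio of the sum had an SD of 1.51 over the 8 plate rows, with rows from 2.39 to 6.06.

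**Figure D1:**
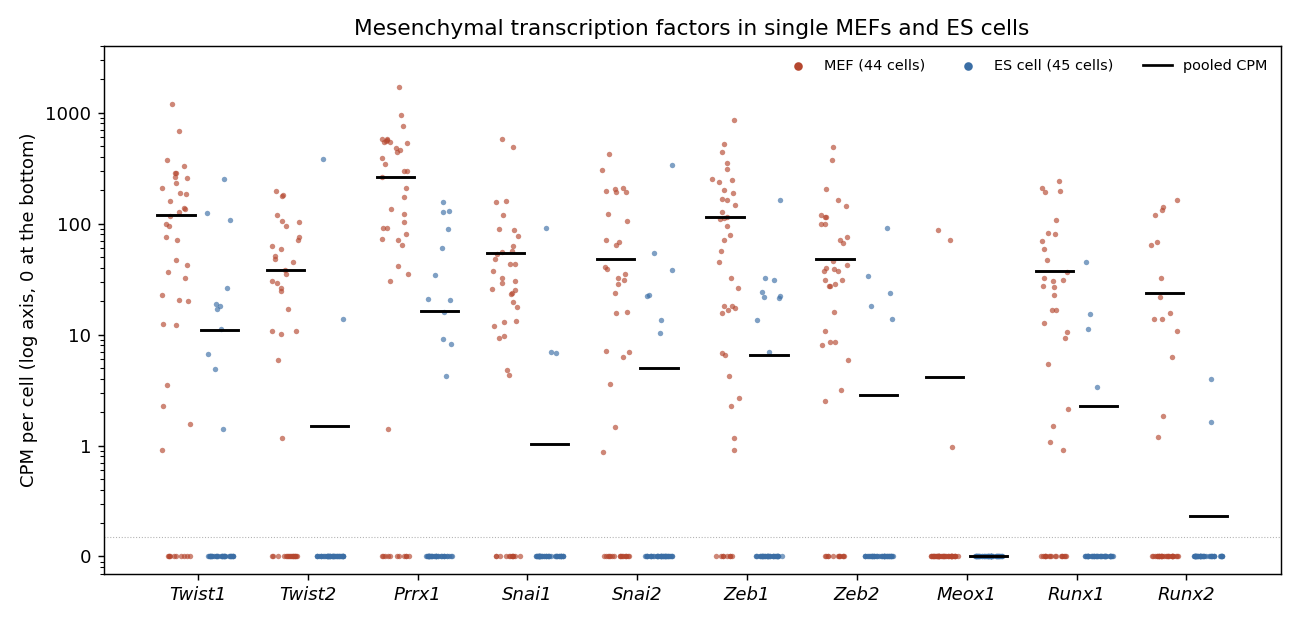
CPM of each of the 10 genes in every MEF (red, left, 44 cells) and every ES cell (blue, right, 45 cells) on a log axis, with cells without a read at the bottom and a black bar at the pooled CPM. Every gene had MEFs without a read, and the ES cells with a read lay within the range of the MEFs for all genes but Twist2, which reached 384 CPM in 1 ES cell and 196 CPM in the highest MEF.

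Twist1, which directs cranial mesoderm and limb mesenchyme (chromosome 12, 33957671 to 33959829, plus strand, GENCODE on GRCm38), ran over 0, 44.4 and 1193 CPM in MEFs (lowest, median and highest cell) and over 0, 0 and 254 CPM in ES cells. Reads were present in 34 of 44 MEFs (77.3%, 95% exact binomial interval 62.2 to 88.5) and in 11 of 45 ES cells (24.4%, 12.9 to 39.5). The ranges of the 2 types overlapped, and most MEFs lay above most ES cells. Pooled, Twist1 had 121 CPM in MEFs (exact Poisson interval 117 to 124) and 11.01 CPM in ES cells (8.92 to 13.4), a log2 ratio of 3.46, which became 4.31 without ES cell replicates 4, 7 and 22. The highest MEF by CPM was replicate 85, and replicate 67 gave 15.9% of all MEF reads of the gene.

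Twist2, its paralogue in dermal and bone precursors (chromosome 1, 91801461 to 91848028, plus strand), ran over 0, 10.8 and 196 CPM in MEFs and over 0, 0 and 384 CPM in ES cells. Only 2 of 45 ES cells had a read, replicate 7 with 9 reads and replicate 22 with 4, against 26 of 44 MEFs. Those 2 wells were among the 3 that stood apart, and the other 42 ES cells had no Twist2 read. Pooled, Twist2 had 38.5 CPM in MEFs (36.5 to 40.6) and 1.49 CPM in ES cells (0.794 to 2.55), a log2 ratio of 4.69. Against the 42 remaining ES cells, with 3 reads put in for a sum of 0, the log2 ratio was 6.74. It was 2.07 by the mean of per-cell CPM, 2.08 with 10 CPM added and 2.55 after thinning, so the size of the Twist2 difference is loosely fixed by these data.

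Prrx1, a homeodomain factor that marks limb and craniofacial mesenchyme (chromosome 1, 163245119 to 163313710, minus strand), had the most reads of the 10 genes. It ran over 0, 112 and 1700 CPM in MEFs and over 0, 0 and 158 CPM in ES cells. Reads were present in 33 of 44 MEFs (75%, 59.7 to 86.8) and in 12 of 45 ES cells (26.7%, 14.6 to 41.9), so no gene of the 10 was read in more ES cells. Pooled, Prrx1 had 266 CPM in MEFs (261 to 271) and 16.2 CPM in ES cells (13.6 to 19.1), a log2 ratio of 4.04. ES cell replicate 10 held 54 of the 141 ES cell reads, and the log2 ratio was 4.68 without it.

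Among the Snail repressors, Snai1 (chromosome 2, 167538195 to 167542814, plus strand) ran over 0, 23.5 and 578 CPM in MEFs and over 0, 0 and 90.8 CPM in ES cells. It was read in 32 of 44 MEFs (72.7%, 57.2 to 85.04) and in 3 of 45 ES cells (6.67%, 1.40 to 18.3). MEF replicate 56 alone held 630 of the 1895 MEF reads, or 33.2%. Pooled, Snai1 had 53.9 CPM in MEFs (51.5 to 56.4) and 1.03 CPM in ES cells (0.472 to 1.96), a log2 ratio of 5.71. Of the 9 ES cell reads, 7 lay in replicates 4 and 22, and without the 3 wells that stood apart the log2 ratio was 7.81, on 2 remaining ES cell reads. Without MEF replicate 56 it was 5.17, and it was 4.59 by the mean of per-cell CPM and 4.10 after thinning.

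Snai2, the Snail paralogue of neural crest and limb mesenchyme (chromosome 16, 14705852 to 14709385, plus strand), ran over 0, 7.05 and 422 CPM in MEFs and over 0, 0 and 340 CPM in ES cells. It was read in 27 of 44 MEFs and 7 of 45 ES cells, and the highest ES cell, replicate 28, lay close to the highest MEF, replicate 53. Pooled, Snai2 had 48.0 CPM in MEFs (45.8 to 50.4) and 5.05 CPM in ES cells (3.67 to 6.77), a log2 ratio of 3.25, the lowest of the 10 on this scale. By the mean of per-cell CPM it was 2.31, above the 2.07 of Twist2. Snai2 was higher in MEFs in 7 of 8 plate rows, as were Runx1 and Runx2, whereas Snai1 was higher in all 8. Meox1, read in 3 MEFs, was higher in 3 rows, and the remaining genes in all 8.

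Zeb1 (chromosome 18, plus strand) was read in more MEFs than any other gene of the 10, in 36 of 44 (81.8%, 67.3 to 91.8), and in 9 of 45 ES cells (20%, 9.58 to 34.6). It ran over 0, 39.01 and 860 CPM in MEFs and over 0, 0 and 163 CPM in ES cells. Pooled, Zeb1 had 115 CPM in MEFs (112 to 119) and 6.54 CPM in ES cells (4.95 to 8.47), a log2 ratio of 4.14. The negative control wells held 9 Zeb1 reads, 8 of them in 1 well. The mean of these wells was taken once per cell well from the pooled reads, with negative sums set to 0. The 57 ES cell reads then came to 0 and the 4058 MEF reads to 3959. On this pooled measure, which rests mostly on 1 control well, the ES cell level of Zeb1 could not be told from background.

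Zeb2, its paralogue with a role in neural crest and myeloid cells (chromosome 2, 44983632 to 45117395, minus strand), ran over 0, 28 and 494 CPM in MEFs and over 0, 0 and 90.8 CPM in ES cells. It was read in 32 of 44 MEFs and 5 of 45 ES cells. Pooled, Zeb2 had 48.3 CPM in MEFs (46.03 to 50.7) and 2.87 CPM in ES cells (1.86 to 4.23), a log2 ratio of 4.07. Its top 3 MEFs held 24.03% of its MEF reads, the lowest such share of the 10 genes. By per-cell CPM it was not the most even, with an SD over MEFs of 1.66 times the mean, against 1.27 for Prrx1. The negative control wells held 2 Zeb2 reads, and subtracting their mean in the same pooled way left 2.5 of the 25 ES cell reads.

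Runx1 (chromosome 16, 92601466 to 92826149, minus strand) ran over 0, 7.34 and 242 CPM in MEFs and over 0, 0 and 44.9 CPM in ES cells. It was read in 27 of 44 MEFs and 4 of 45 ES cells. Pooled, Runx1 had 37.6 CPM in MEFs (35.6 to 39.7) and 2.29 CPM in ES cells (1.40 to 3.54), a log2 ratio of 4.04. ES cell replicate 22 held 13 of the 20 ES cell reads, and without it the log2 ratio was 5.50.

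Runx2, the regulator of bone formation (chromosome 17, 44495987 to 44814797, minus strand), was read in 15 of 44 MEFs (34.1%, 20.5 to 49.9) and in 2 of 45 ES cells with 1 read each. It ran over 0, 0 and 163 CPM in MEFs and over 0, 0 and 3.95 CPM in ES cells. Replicates 60, 65 and 51 had 163, 140 and 132 CPM, and the 3 MEFs with most reads held 61.8% of them. Pooled, Runx2 had 23.7 CPM in MEFs (22.1 to 25.4) and 0.229 CPM in ES cells (0.0278 to 0.828), a ratio of 103 that rests on 2 ES cell reads. The log2 ratio was 6.69 as pooled, 6.63 without ES cell replicates 4, 7 and 22, 2.35 after thinning and 1.72 with 10 CPM added.

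Meox1 (chromosome 11, 101877510 to 101894374, minus strand) was read in 3 of 44 MEFs (6.82%, 1.43 to 18.7) and in 0 of 45 ES cells, for which the exact interval reaches 7.87%. Replicates 49, 72 and 60 had 84, 62 and 1 reads, which came to 87.9, 70.96 and 0.974 CPM. The other 41 MEFs had none. Pooled, Meox1 came to 4.18 CPM in MEFs (3.53 to 4.91) and to 0 in ES cells (0 to 0.423). With 3 reads put in for the 0 ES cell reads, the ratio was 12.2-fold, which is a stand-in and no lower bound. Without MEF replicate 49, the log2 ratio formed with these 3 reads was 2.42.

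Between genes, levels were compared first per kilobase of transcript and then by CPM alone. In MEFs the order was Twist1 (74.1 CPM per kb), Prrx1 (35.7), Snai1 (33.99), Twist2 (29.3), Snai2 (23.9), Zeb1 (22.1), Zeb2 (5.30), Runx1 (5.10), Runx2 (3.42) and Meox1 (1.89). Counting intervals overlapped between 3 of the 9 neighbours in this order, namely Prrx1 and Snai1, Snai2 and Zeb1, and Zeb2 and Runx1. The ranges over plate rows overlapped between all 9, so no neighbouring levels differed beyond the spread of the rows. As STRT reads start at 5′ ends, they need not grow with length. Dividing by length may thus place long transcripts such as Prrx1, Zeb1 and Zeb2 too low. By CPM without this division, the order was Prrx1 (266 CPM), Twist1 (121), Zeb1 (115), Snai1 (53.9) and Zeb2 (48.3). Snai2 (48.0), Twist2 (38.5), Runx1 (37.6), Runx2 (23.7) and Meox1 (4.18) followed.

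The ES cell reads of these genes lay in few wells. Of 407 reads, 154 (37.8%) came from replicates 4, 7 and 22, which held 4.22% of the ES cell gene reads. Replicate 22 had 8 of the 10 genes and 102 reads, replicate 10 had 4 genes and 87 reads, replicate 4 had 6 genes and 43 reads, replicate 41 had 6 genes and 22 reads, and 21 ES cells had none. Replicates 10 and 41 lay nearer to the ES cell profile by both measures. The 12 fibroblast markers summed to 41031 CPM in replicate 4, 27360 CPM in replicate 7, 9304 CPM in replicate 22, 5573 CPM in replicate 10 and 3965 CPM in replicate 41, beside a median of 1546 CPM over the ES cells. High fibroblast markers did not always come with reads of the 10 genes: replicates 30, 8 and 2 had 16111, 14806 and 14265 CPM of the markers and 0, 0 and 1 reads of the 10 genes, in shallow wells of 18186, 13576 and 16684 gene reads. Over all ES cells the ratio of MEF to ES cell level was 16.2 for the 10 genes and 16.6 for the 12 fibroblast markers, and without the 3 wells it was 24.97 for the 10 genes and 21.4 for the markers. In the opposite direction, the 12 pluripotency markers summed to 30.8 CPM in MEFs and 8631 CPM in ES cells, a 280-fold difference. Whether ES cell reads of the 10 genes came from the same source as the fibroblast marker reads was not tested.

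Depth differed between the types, so each cell was also thinned to 20000 gene reads, which left 44 MEFs and 42 ES cells and left out 3 ES cells. After thinning, Prrx1 was read in 28 MEFs and 6 ES cells, Twist1 in 25 MEFs and 3 ES cells, and Zeb1 in 25 MEFs and 4 ES cells. Snai1 was read in 18 MEFs and 2 ES cells, Twist2 in 15 MEFs and 1 ES cell, Zeb2 in 15 MEFs and 3 ES cells, and Runx1 in 13 MEFs and 2 ES cells. Snai2 and Runx2 were each read in 10 MEFs, with 2 ES cells for Snai2 and 0 for Runx2, and Meox1 in 1 MEF and 0 ES cells. At equal numbers of gene reads per cell every gene was read in more MEFs than ES cells, and the thinned shares in MEFs were lower than those as counted for all 10 genes.

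As counted, 8 of the 10 genes were read in at least 50% of MEFs, as were 41.4% of the 12818 genes. Single MEFs nevertheless held only part of the set. The number of the 10 genes with a read ran from 1 to 9 per MEF with a median of 6, and from 0 to 8 per ES cell with a median of 1. No MEF had all 10 and none had 0, while 21 of 45 ES cells had 0. After thinning, the medians were 3 in MEFs and 0 in ES cells. With at least 10 reads required, they were 5.5 in MEFs and 0 in ES cells. Deeper MEFs had more of the genes, with Spearman's rho of 0.72 as counted and 0.43 after thinning, given as a description since the number and the depth come from the same library.

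**Figure D2:**
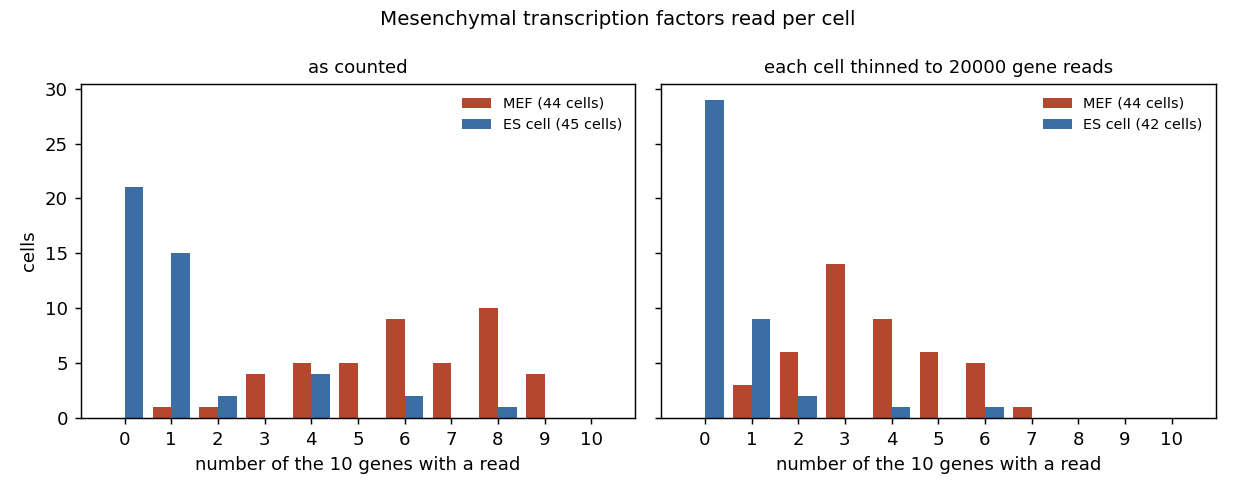
Number of cells (vertical axis) by how many of the 10 genes had a read (horizontal axis), for MEFs (red, left bars) and ES cells (blue, right bars), as counted in the left panel and thinned to 20000 gene reads in the right panel. The MEF median is 6 as counted and 3 thinned, the ES cell median 1 and 0.

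Grouped by family (Twist, Prrx1, Snail, Zeb and Runx), 17 of 44 MEFs had a read from all 5 families and 18 had reads from 4, against 2 and 5 of 45 ES cells. Thinned, all 5 families were seen in 4 of 44 MEFs and 0 of 42 ES cells. The combinations of genes were varied. The 44 MEFs showed 36 distinct combinations, of which 31 were seen in 1 cell. The most common, all genes but Meox1 and Runx2, was seen in 4 MEFs (replicates 63, 69, 75 and 87), and the same set without Twist2 in 3 (replicates 70, 76 and 81). The share of MEFs with all 5 families was close in both sets of plate rows, 10 of 24 MEFs in rows A to D and 7 of 20 in rows E to H.

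**Figure D3:**
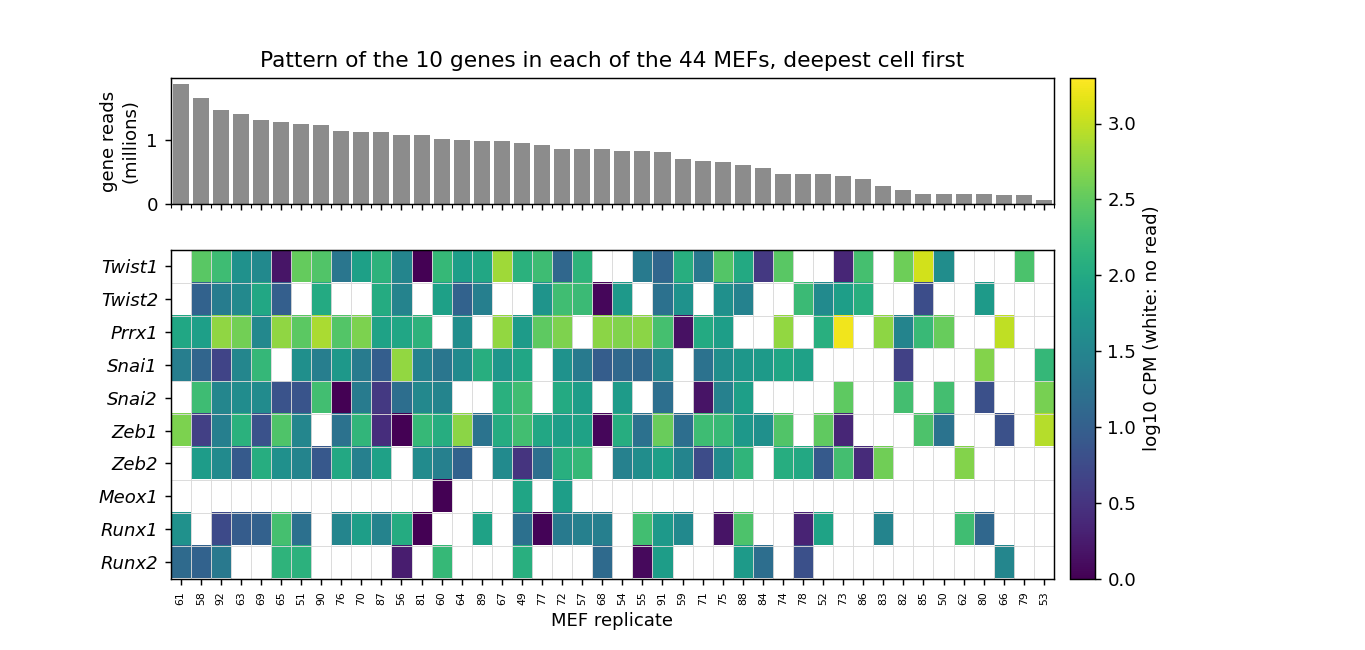
Level of the 10 genes (rows) in each of the 44 MEFs (columns, deepest cell first), coloured by log10 CPM and white where the cell had no read, with gene reads per cell above (axis in units of 1e6). White cells are more frequent to the right, where cells are shallow, and they also occur among the deepest cells: replicate 61, the deepest, had no read of Twist1, Twist2, Snai2, Zeb2 or Meox1.

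No pair of the 10 genes moved closely together over MEFs. Over the 45 pairs, Spearman's rho of CPM ran from -0.32 (Twist1 and Runx1) to 0.31 (Zeb2 and Runx1) with a median of 0.04. After thinning it ran from -0.28 to 0.26. With counts this sparse and with depth shared by both genes of a pair, these weak values are a description only.

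Paralogues were each tracked in the same cells. Twist1 and Twist2 were both read in 21 MEFs, Twist1 alone in 13, Twist2 alone in 5 and neither in 5. For Snai1 and Snai2 these counts were 24 with both, 8 with Snai1 alone, 3 with Snai2 alone and 9 with neither. Zeb1 and Zeb2 were both read in 27, Zeb1 alone in 9, Zeb2 alone in 5 and neither in 3, the fewest MEFs without a family member. Runx1 and Runx2 were both read in 11, Runx1 alone in 16, Runx2 alone in 4 and neither in 13, so this was the family with the fewest shared cells. Of the family reads in MEFs, Twist1 gave 75.8%, Zeb1 70.5% and Runx1 61.3%. Snai1 gave 52.9%, and 43.1% without MEF replicate 56, which held 630 Snai1 and 17 Snai2 reads, so 1 cell decided which Snail gene had more reads. Single cells often held mostly 1 paralogue. Over 90% of the family reads came from Zeb1 in 14 MEFs and from Zeb2 in 9, and from Twist1 in 15 and from Twist2 in 7. No minimum of family reads was set, so cells with 1 read count here. MEF replicates 56, 66 and 68, for example, had 1 Zeb1 read and no Zeb2 read. With at least 10 reads required, Zeb1 was read alone in 8 MEFs and Zeb2 in 8, and Twist1 in 11 and Twist2 in 6.

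**Figure D4:**
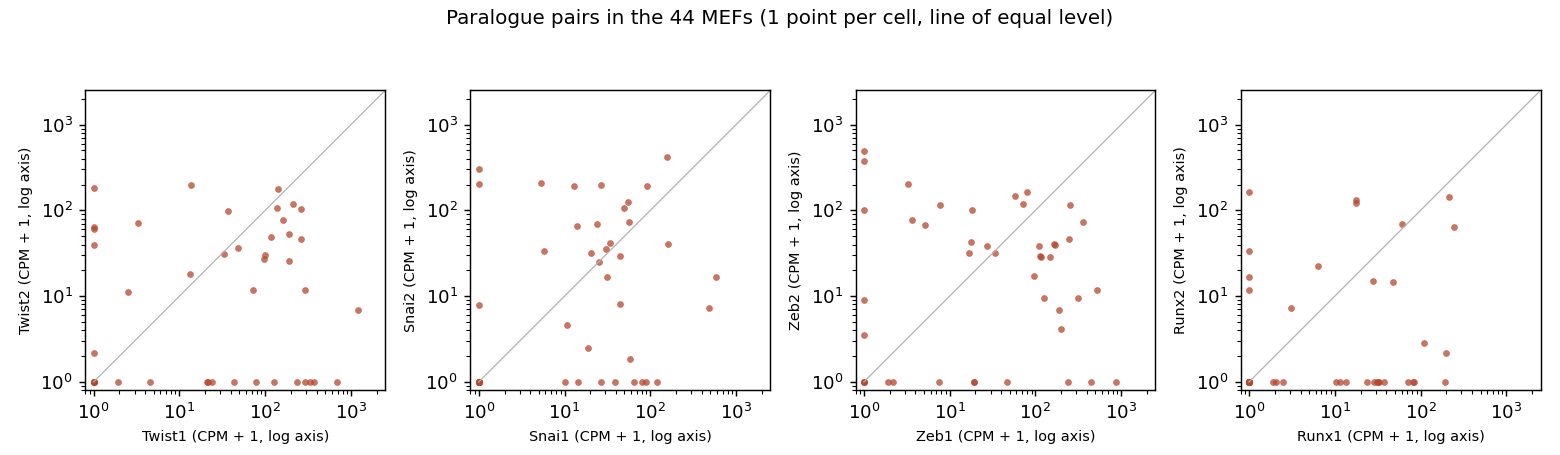
CPM plus 1 of the paralogues on log axes in the 44 MEFs, a point per cell, with the line of equal level. Points on the axes are cells without a read of the other paralogue, such as the 13 MEFs with Twist1 alone, and points lie on both sides of the line in every family.

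For each of the 8 genes read in at least 50% of MEFs, the genes most alike in pattern were sought among the 5303 genes read in as many MEFs, by Spearman's rho of log2(CPM + 10) over the 44 MEFs. The closest was Xpr1, a phosphate exporter, to Runx1 with a rho of 0.71, or 0.60 after thinning. Taok1, a kinase, was closest to Prrx1 with 0.65 (0.51 thinned), 5930434B04Rik to Zeb2 with 0.64 (0.44 thinned), Bysl, a ribosome assembly factor, to Twist1 with 0.62 (0.21 thinned) and 2900064A13Rik to Snai1 with 0.61 (0.30 thinned). Rps2 was closest to Snai2 with 0.57 (0.30 thinned), Slu7 to Twist2 with 0.56 (0.40 thinned) and Gxylt1 to Zeb1 with 0.54 (0.37 thinned). Each is the highest of 5303 values over the same cells. Thinning lowered all 8, and none of the 8 closest genes was another of the 10. Among the next in likeness, the collagen gene Col6a1 followed Twist2 (0.55, or 0.60 thinned), the thrombomodulin gene Thbd followed Snai1 (0.55, or 0.62 thinned), and Vprbp, Snap29, Atp5g2, Tmem223, Uck2, Siva1, Hs6st2, Atn1, Atic, Rbms2, Arpc1a, Cxx1a, Rhob and Fbxo34 lay between 0.53 and 0.64. Of these, Atn1 and Cxx1a had 22.2% and 13.03% unique reads, so their counts are uncertain.

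Among the paralogues and partners of the 10 genes, 21 were listed. Of these, 17 had at least 20 reads, and 13 passed 2-fold toward MEFs (58.5% of all genes did), 0 toward ES cells (15.4%) and 4 neither way, with a median log2 ratio of 2.94. Cbfb, the shared Runx partner, had 74.1 CPM in MEFs and 2.98 CPM in ES cells. Prrx2 had 129 CPM in MEFs and 8.60 CPM in ES cells, and Id3, an inhibitor of E proteins, 379 CPM in MEFs and 25.9 CPM in ES cells. Lats2, a Hippo pathway kinase, had 144 CPM in MEFs and 7.0 CPM in ES cells. Another Snail gene, Snai3, was at 0 reads over the MEFs and 12 over the ES cells, and Runx3 and Meox2 had no read in either type.

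Of 50 other listed mesenchymal and fibroblast transcription factors, 40 had at least 20 reads. Of these, 37 passed 2-fold toward MEFs (58.5% of all genes did) and 0 toward ES cells (15.4%), with a median log2 ratio of 3.62. Hmga2, an architectural chromatin protein, had 828 CPM in MEFs and 43.1 CPM in ES cells, more than any of the 10 genes before division by length. Sox4 had 238 CPM in MEFs and 22.9 CPM in ES cells, and Gli3 had 117 CPM in MEFs and 7.34 CPM in ES cells. The median of the 10 genes, 4.06, stood beside this 3.62 with no test of the difference.

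Skeletal genes, some of them targets of Runx2, were less uniform. Of 12 listed, 8 had at least 20 reads, with 6 past 2-fold toward MEFs, 1 toward ES cells and 1 neither way, shares near those of all genes (58.5% toward MEFs and 15.4% toward ES cells). Col2a1, a cartilage collagen, had 68.4 CPM in MEFs and 2.06 CPM in ES cells, and Postn 24.3 CPM in MEFs and 2.64 CPM in ES cells. Alpl, an alkaline phosphatase of bone and also of pluripotent cells, had 0.142 CPM in MEFs and 49 CPM in ES cells. Col10a1 was at 4.52 CPM in MEFs and without a read in ES cells. Sp7, the factor that follows Runx2 in bone formation, had no read in either type.

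The epithelial genes that Snail, Zeb and Twist factors are known to repress lay the other way. Of 22 listed, 17 had at least 20 reads, and 13 passed 2-fold toward ES cells (15.4% of all genes with as many reads did), 3 toward MEFs and 1 neither way, with a median log2 ratio of -5.92. Cdh1, which encodes E-cadherin, had 0.313 CPM in MEFs and 145 CPM in ES cells, and was read in 4 of 44 MEFs and 18 of 45 ES cells. Epcam had 0.398 CPM in MEFs and 128 CPM in ES cells, Rab25, an epithelial trafficking protein, 0.114 CPM in MEFs and 32.5 CPM in ES cells, and Crb3 0.171 CPM in MEFs and 32.5 CPM in ES cells. Cldn6, a tight junction claudin, had 0 reads in MEFs and 33.8 CPM in ES cells, 396-fold lower in MEFs with 3 reads put in for the 0. Many of the 13 rested on few cells. Epcam was read in 14 of 45 ES cells, Cldn6 in 11, Crb3 in 10 and Rab25 in 3. Cldn4 was read in 15, Cldn7 in 8, Esrp1 in 4, St14 in 3, Cldn3, Grhl2 and Ovol2 in 2 each and Krt8 in 1. The 3 that were higher in MEFs were the desmosome gene Dsp and the keratin genes Krt18 and Krt19, and the tight junction gene Tjp1 was in neither. Dsp, Krt18, Krt19, Tjp1 and Crb3, like Snai3, Runx3, Meox2 and Sp7 above, were picked for naming after their values were seen.

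Of the 13 epithelial genes higher in ES cells, 9 had a promoter window on file, and 7 of these (77.8%) held the E-box at least once, as do those of Crb3 and Epcam printed above, while 19.4% of the 27025 genes in the table did. Of these 9, 4 genes (Epcam, Cldn7, Crb3 and Rab25) had at least 2 copies in 1 window, as did 2.39% of all genes. No window was on file for Cdh1, Esrp1, Grhl2 and St14. These genes were listed as known targets of E-box repressors, so the shares describe the list and test nothing.

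The genes that mesenchymal factors accompany, such as those of matrix and contractile fibres, were uniformly higher in MEFs. By at least 2-fold it was 20 of 20 (58.5% of all genes), with a median log2 ratio of 4.03. Of these, Col1a1, Col1a2, Col3a1, Fn1, Vim, Thy1, Pdgfra, Pdgfrb, Acta2 and Tagln were also among the fibroblast markers used to check the labels. For them the count repeats that check. Mmp2, a matrix protease, had 1928 CPM in MEFs and 67.5 CPM in ES cells, Acta2, a smooth muscle actin of contractile fibroblasts, 2092 CPM in MEFs and 97.0 CPM in ES cells, and Col1a1 1709 CPM in MEFs and 76.4 CPM in ES cells. The 10 transcription factors were read far less, at 756 CPM in all.

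**Figure D5:**
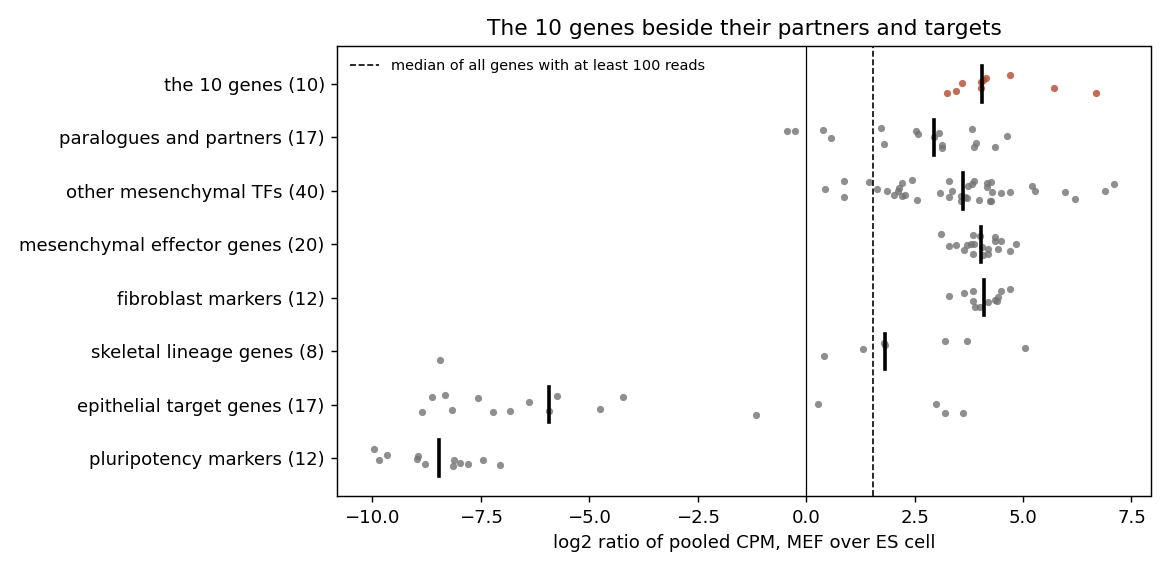
Log2 ratio of pooled CPM (MEF over ES cell) of each gene with at least 20 reads, by list, with a black bar at the list median and a dashed line at the median of all genes (1.54). The 10 genes (red) lie between 3.25 and 6.69, 13 of 17 epithelial target genes lie below -1 and all 12 pluripotency markers lie below -1. Genes with no read in a type are drawn at the value given by 3 reads.

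Markers of other cell types were also looked at in MEFs, since Runx1 is known in blood cells and Zeb2 in neural crest. Of 10 macrophage and blood markers, 6 had no read in any cell (Cd68, Emr1, Cd14, Hba-a1, Hbb-b1 and Gata1), and Ptprc, which marks all white blood cells, had 1 read over the MEFs and 2 over the ES cells. Lyz2 had 74 reads in 2 MEFs and Csf1r 23 reads in 1 MEF, with none in ES cells. Their summed level ran from 0 to 75.3 CPM over MEFs, with a median of 0, and from 0 to 12.4 CPM over ES cells. Endothelial markers summed to between 0 and 127 CPM over MEFs and between 0 and 451 CPM over ES cells, with medians of 0. Of the 8 endothelial markers, Pecam1, Cdh5, Tie1 and Emcn had no read, while Flt1 had 545 reads over 12 MEFs and 9 over 3 ES cells, Kdr 200 reads in 4 MEFs and no ES cell read, Tek 76 reads over 3 MEFs and 11 over 2 ES cells, and Egfl7 184 reads in 6 MEFs and 326 in 8 ES cells. Muscle markers summed to between 0 and 208 CPM over MEFs and between 0 and 109 CPM over ES cells. Of the 8 muscle markers, Myod1, Myog, Myf5, Actn2 and Myh3 had no read, while Acta1 had 784 reads over 19 MEFs and 8 over 3 ES cells, Tnnt2 116 reads in 4 MEFs and no ES cell read, and Des 15 reads in 3 MEFs and 19 in 3 ES cells. The neural and neural crest list summed to a median of 118 CPM in MEFs and 302 CPM in ES cells, mostly from few of its genes. Stmn2 gave 3235 of the 3526 ES cell reads of this list. Nes, Stmn2 and Tubb3 gave 4670, 2547 and 2450 of its 10090 MEF reads. Pax6 and Gfap had no read in either type, and Dcx had 16 reads in 1 MEF. Of the 6 measured genes, 4 passed 2-fold toward MEFs and 2 toward ES cells, beside 58.5% and 15.4% of all genes. Nes had 133 CPM in MEFs and 12.5 CPM in ES cells, Tubb3 69.7 CPM in MEFs and 13.99 CPM in ES cells, and Stmn2 72.4 CPM in MEFs and 371 CPM in ES cells. Of the neural crest genes in this list, named after their values were seen, Sox10 had 100 reads in 5 MEFs and was not read in ES cells, Foxd3 6 reads in 3 MEFs and 40 in 1 ES cell, and Pax3 none. The part of such cells in the levels of the 10 genes was not tested. Runx1 was read in 27 MEFs, against 2 for Lyz2 and 1 for Csf1r.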

How the data were processed

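Raw read counts per transcript in each well were deposited by the authors with no normalisation. Per the file headers, barcodes, added Gs and trailing As were removed, low-quality and short reads were dropped, and the counts are maximum exon hits, which include alternative mappings. Other columns deposited by the authors give transcript length and plate-wide counts, both of all reads and of unique reads. All 10 genes had 100% unique reads. Bowtie was named in the submitters' processing notes; its version, the genome build and the annotation are not given in the sources used here. Gene coordinates were therefore matched by symbol to GENCODE on GRCm38 and promoters to RefSeq on GRCm38.p6.

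The members and the 12 comparison lists were chosen with earlier results of these data known. For each type, reads of a gene were pooled over its cells and scaled by the pooled gene reads (CPM), with exact Poisson intervals for sums and Clopper-Pearson intervals for shares, both at 95%. Reads carry no molecular identifiers, so intervals and floors cover counting error only. Where a type had 0 reads of a gene, 3 reads per type served as the floor. The log2 ratio is MEF over ES cell, and with 1 culture per type no test was made. Genes with at least 20 reads entered counts of genes, and those with at least 100 the all-gene median. Thinning drew 20000 gene reads per cell with seed 7. Named genes of a list are the 4 with the largest absolute log2 ratio with 10 CPM added, of which 2 genes are not reported here, and genes of like pattern are the 3 with the highest Spearman's rho. The computation was tested on simulated data. ES cell replicates 32, 44 and 46 fell below 10000 gene reads. Doublets were not called, as each well is labelled as 1 cell. Python 3.11.15, pandas 2.3.3, numpy 2.4.6, scipy 1.17.1 and matplotlib 3.10.9 were used. Alternatives changed the scaling, depth, background, minimum reads, plate rows and wells, and those without ES cell replicates 4, 7 and 22, without MEF replicate 53 and, for family shares, without the top MEF were added after seeing the data.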

Additional observations from a re-analysis of the deposited data

Results flagged for a closer look

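Values of 3 genes in the 4 negative control wells stood far from the other wells of that group. Prrx1 had 4 reads in replicate 95 and 0 in the other wells. Zeb1 had 8 reads in replicate 94, 1 in replicate 93 and 0 in the other wells. Zeb2 had 2 reads in replicate 94 and 0 in the other wells. Chance flags about 1 in 20 groups of this size by this rule, but this rate cannot be applied to counts that are mostly 0. All 3 genes with a read in these wells were flagged, and the other 7 genes had no read there. The 15 reads came to 0.120% of the gene reads of the negative control wells, against 0.0756% in MEFs and 0.00467% in ES cells. Their source was not tested.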

How the results depend on the processing

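All 10 genes passed 2-fold toward MEFs under the alternatives run, except that 9 did with 10 CPM added (Meox1 at 0.50 on the log2 scale) and 9 after thinning, where Meox1 had 2 MEF reads and 0 ES cell reads and no ratio was formed. Over 159 single-gene log2 ratios under alternatives, all 159 were higher in MEFs. Of them, 58 moved by more than the SD over plate rows, an SD taken on ratios with 10 CPM added. That is another scale than most of the ratios compared. The log2 ratio of the summed genes, 4.02, was 8.58 with spike-in scaling and was within 1 SD of the main value under the other alternatives, with 2.62 by median-of-ratios scaling. Spike-in scaling moved the median of all genes to 6.10, median-of-ratios scaling to 0.15 and totals without ribosomal protein genes to 0.91, which shift all genes alike and so leave distances from that median as they were. As counted, all 10 genes lay at least 2-fold above it. With 10 CPM added, after thinning, in either set of plate rows (A to D or E to H) and without each gene's top MEF, 9 did, and in the mean of per-cell CPM 8 did. The median number of genes per MEF was 3 after thinning, against 6 as counted. Of the epithelial genes, 7 passed 2-fold toward ES cells with 10 CPM added and 8 after thinning, against 13. No paired analysis was possible because the replicate numbers are not shared between MEFs and ES cells and no test was made; ratios within plate rows, which hold different cells, served as a spread. Few reads stand behind some ES cell values: 9 for Snai1, 2 for Runx2 and 0 for Meox1.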
